A study of Homo sapiens with 10 samples.

Results

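Untreated SLFN11 knockout cells were compared with untreated parental cells for chromatin accessibility, across all regions called open in either. The comparison takes 2 of the 10 libraries of the study, 1 library per line. Both lines are CCRF-CEM, an established human T lymphoblast line from a leukemia, and both libraries were given only the solvent DMSO. The knockout cells are labelled as lacking SLFN11 through gene knockout, and the parental cells as wild-type. The labels used here do not say how the gene was disrupted or whether the knockout line is 1 clone. The other 8 libraries were given prexasertib, an inhibitor of the checkpoint kinase CHK1, at 100 nM for 2, 4 or 6 h, or camptothecin, which traps topoisomerase I on DNA, at 100 nM for 4 h. They serve here to show what became of the untreated differences in other libraries of the same lines.

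ATAC-seq marks open chromatin by letting a transposase insert sequencing adapters where DNA is not wrapped in nucleosomes, as at active promoters and enhancers. A peak caller then lists the stretches where insertions pile up above the background. SLFN11 belongs to the schlafen family and is known as a protein that binds stalled replication forks, opens chromatin around them and blocks replication there, and its loss makes cancer cells tolerant of DNA-damaging drugs. The untreated cells show what differs between the lines before such stress is applied.

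Peaks of all 10 lists that overlapped were joined into regions, and a library called a region when its list had a peak there. The knockout list held 20222 peaks covering 12.4 Mb of chromosomes 1 to 22 and X, and the parental list 15921 peaks covering 8.99 Mb. The median peak was 560 bp wide in knockout cells and 514 bp in parental cells, and 20.7% of knockout and 18.5% of parental peaks had more than 1 summit. Depth is not given as a read count. The genome-wide background pileup, recovered from the deposited values and used as a measure of depth, was 1.59 in the knockout library and 1.63 in the parental one. The lowest summit that entered either list had a pileup of 9. With 1 library per line no difference below has a replicate check, no test was possible, and the intervals hold only the error of counting regions. Positions are on hg19. No annotation of that build was used, so the SLFN11 gene itself and T cell marker genes were not examined.

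Knockout cells had more regions called open. Of the 21420 regions called in either untreated list, 14231 (66.4%, exact binomial 95% interval 65.8% to 67.1%) were called in both, 5723 in knockout only (26.7%, 26.1% to 27.3%) and 1466 in parental only (6.84%, 6.51% to 7.19%). These make 28.7% of the knockout list and 9.34% of the parental list. The balance depends on the length of the lists: with the same number of peaks taken from each, strongest first, 2742 regions were in knockout only and 2625 in parental only. When only peaks with a −log10 q of at least 10 were kept in each list, the numbers were 3442 and 512. These include regions where the other list had a weaker peak that the cut removed. Against the full parental list, 545 of 4837 knockout regions with a −log10 q from 10 to 20 and 43 of 5962 at 20 and over had no peak. Against the full knockout list it was 62 of 4475 and 7 of 3394 parental regions.

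The regions called in 1 list only were narrow and weak. Those of knockout cells had a median width of 329 bp, against 678 bp in knockout cells at regions called in both lists. Those of parental cells had a median width of 282 bp, against 550 bp in parental cells at regions called in both. Summit height, the pileup at the summit over the genome-wide background, had a median of 8.78 in knockout-only and 7.96 in parental-only regions. At regions called in both lists it was 21.9 in knockout cells and 15.9 in parental cells. The deposited −log10 q had medians of 4.76 in knockout-only and 4.04 in parental-only regions.

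Weaker regions were more often missing from the other list. Of knockout regions with a −log10 q from 2 to 5, 71.7% were in knockout only, and of parental regions of that strength 28.1% were in parental only. From 5 to 10 the shares were 42.5% and 9.44%, and from 10 to 20 they were 11.3% and 1.39%. Of the 5962 knockout regions at 20 and over, 43 (0.721%, 0.522% to 0.970%) were in knockout only, and of the 3394 such parental regions 7 (0.206%, 0.0830% to 0.424%) were in parental only. The share missing from the other list was higher for knockout than for parental regions in each of these 4 classes.

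**Figure D1:**
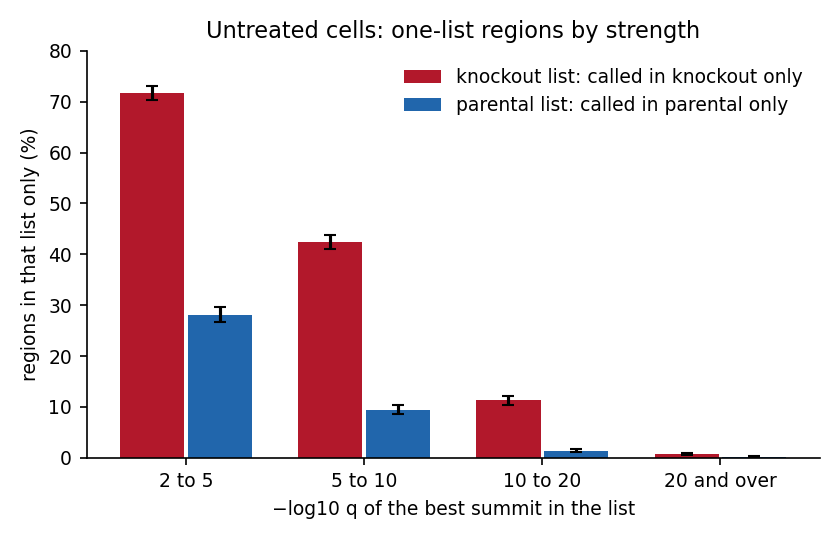
Share of regions called in only 1 untreated list (y axis, %) by the −log10 q of the best summit in the list (x axis), for the knockout list (red, left bars) and the parental list (blue, right bars). Error bars are exact binomial 95% intervals over regions. Among the weakest regions 71.7% of knockout and 28.1% of parental ones were in 1 list, and among the strongest under 1% of either.

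Most regions called in 1 untreated list were called again in treated cells of the other line. Of the 5723 knockout-only regions, 4882 (85.3%) were called in at least 1 of the 4 treated knockout libraries and 4189 (73.2%) in at least 1 of the 4 treated parental libraries. Of the 1466 parental-only regions, 1108 (75.6%) were called in at least 1 treated knockout library and 1011 (69.0%) in at least 1 treated parental library. Regions called in 1 untreated library and in none of the 8 treated ones numbered 605 (10.6%) among knockout-only and 239 (16.3%) among parental-only regions. The one-list regions thus recurred less than regions called in both untreated lists. Of those 14231 regions, 98.97% were called in at least 1 treated parental and 99.66% in at least 1 treated knockout library. In none of the 8 were 18 (0.13%). The parental DMSO list was the only one of 10 to lack 647 of the knockout-only regions, and the knockout DMSO list was the only one to lack 82 of the parental-only regions.

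The knockout-only regions were called more often in treated knockout than in treated parental cells under prexasertib. After 2 h they were called in 71.0% of cases in knockout and 25.1% in parental cells, after 4 h in 60.9% and 38.7%, and after 6 h in 67.0% and 57.8%. After camptothecin the order was the other way round, with 47.7% called in knockout and 54.4% in parental cells. Parental-only regions gave the same order: after 2 h of prexasertib 58.4% were called in knockout and 26.3% in parental cells, and after camptothecin 33.4% and 48.0%. In the 2 h pair, 546 of the 1466 parental-only regions were called in knockout cells only and 75 in parental cells only. Of the knockout-only regions, 2756 were again in knockout only and 132 in parental only at 2 h. The order was not particular to one-list regions, since those called in both untreated lists had it too. Of these, the 2 h knockout library called 98.5% and its parental counterpart 88.0%, while camptothecin gave 94.1% in knockout and 95.8% in parental cells. In the 2 h pair, 1547 of these shared regions were called in knockout cells only and 58 in parental cells only. The 2 h knockout library had the highest background pileup of the 10, at 2.1, against 1.48 in the 2 h parental library, and the background was higher in the knockout library of the other treated pairs too. The part of this background in these calls was not tested.

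**Figure D2:**
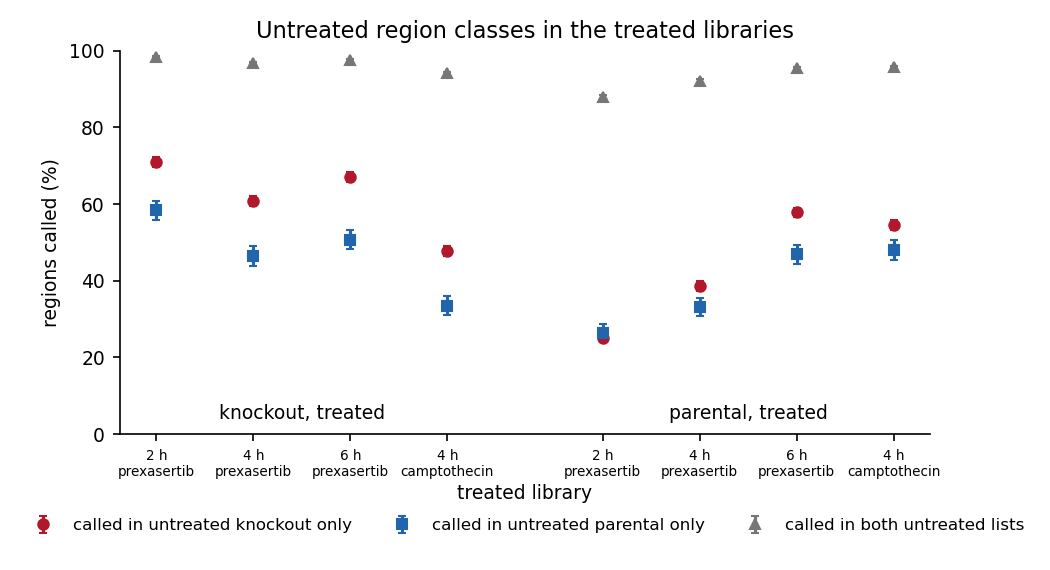
Share of regions called in each treated library (y axis, %), knockout libraries on the left and parental libraries on the right, for regions called in untreated knockout only (red circles), in untreated parental only (blue squares) and in both untreated lists (grey triangles). Error bars are exact binomial 95% intervals over regions. Regions called in both lists stayed at 88.0% or more in every treated library, while both one-list classes ran between 25.1% and 71.0%.

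Few regions were tied to a line in every library. In all 5 knockout and no parental libraries 128 regions were called, 2.24% of the 5723 knockout-only regions. In all 5 parental and no knockout libraries 2 were called, 0.14% of the 1466 parental-only regions. Leaving out the parental 4 h prexasertib list, whose raw reads are truncated per the series record, gave 151 and 6. Those named here were chosen after their values were seen. The strongest region tied to the knockout was chr10:42542940-42543899, with a summit height of 114 in untreated knockout cells and between 78.2 and 118 in the treated ones. The next were chr11:14379928-14380829, at a height of 19.4, and chr2:177373379-177374147, at 16.3. The 2 regions tied to parental cells were weak: chr14:44272393-44273013 had a height of 10.4 in untreated parental cells and chr7:145699760-145700200 a height of 5.51.

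The strongest knockout-only regions lay where the local background was high. At chr5:134263416-134263686 the untreated knockout peak was 258 bp wide, with a height of 403 and a −log10 q of 217, on a local background 82.9 times the genome-wide one. At chr18:18516087-18516362 the height was 480.3 on a local background of 141 times, and at chr4:49112404-49112863 it was 212 on 39.4 times. At chr8:43822265-43822799 the height was 99.7 on 17.2 times, and at the chromosome 10 region named above 114 on 25.0 times. Of the 4 treated knockout libraries, 2 called the chromosome 5 region, 3 the chromosome 4 region and all 4 the regions of chromosomes 18, 8 and 10. All 5 regions but that of chromosome 10 were called in at least 3 of the 4 treated parental libraries. Their heights in treated parental cells were 417 to 505 at the chromosome 5 region, 459.8 to 480.6 at chromosome 18, 252 to 295 at chromosome 4 and 99.6 to 129 at chromosome 8. The parental DMSO list held no peak at any of the 5. Of all knockout-only regions 14.7% were called in all 4 treated parental libraries, and the share in at least 3 is not given.

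The strongest parental-only regions were also called in treated cells of the other line. The highest −log10 q was 936 at chr1:567268-567575, where the parental peak was 199 bp wide and the pileup could not be recovered. At chr4:49093972-49095417 the untreated parental height was 353 on a local background of 34.5 times, and this region was called in all 8 treated libraries, at 316 to 393 in knockout and 303 to 418 in parental cells. It ends 16.99 kb before the knockout-only region of chromosome 4. At chr10:39128142-39128963 the untreated parental height was 88.8, and treated knockout libraries reached 63.8 and 88.3 in the 2 that called it. At chr7:57997195-57997592 the parental height was 62.4, and at chr19:24571427-24572019 it was 30.0, with treated knockout heights of 52.3 to 57.2 and 23.3 to 30.6. Each of these 5 regions was called in at least 1 treated knockout library. The regions of chromosomes 7 and 19 were called in 1 treated parental library each, against 2 and 3 treated knockout libraries. Those of chromosomes 1 and 10 were called in 3 and 4 treated parental libraries, against 1 and 2 treated knockout ones. A local background of at least 10 times the genome-wide one was found at 21 of 5723 knockout-only regions (0.367%) and at 6 of 1465 parental-only regions with a recovered pileup (0.410%). It was more frequent at shared regions, with 234 of 14219 in knockout cells (1.65%) and 142 of 14220 in parental cells (0.9986%). Among the 20 shared regions of highest −log10 q, all of those with a recovered background had it, 10 in knockout and 11 in parental cells.

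Away from such background, 4 of the 5 knockout-only regions of highest −log10 q were called in at least 3 treated parental libraries. These 5 were chosen after the values were seen, with a local background under 10 times. The highest −log10 q, 40.1, was at chr20:290452-291341, 648 bp wide with a height of 38.3 in untreated knockout cells. It was called in all 8 treated libraries, at 18.6 to 28.6 in knockout and 14.9 to 34.1 in parental cells. At chr15:40732625-40733426 the untreated knockout height was 41.4, with 27.6 to 46.5 in treated knockout and 25.7 to 68.9 in treated parental cells. At chr16:35232445-35232693 it was 43.3, with 30.5 to 46.0 in treated knockout and 31.1 to 43.6 in treated parental cells. At chr3:197825797-197826022 it was 45.2, and 2 treated knockout and 3 treated parental libraries called the region. The exception was chr1:77481635-77481982, with a height of 29.5, which 2 treated knockout libraries and 1 treated parental library called. Over all 5723 knockout-only regions, 842 (14.7%) were called in all 4 treated parental libraries. The share called in at least 3 is not given.

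Regions called in both untreated lists were mostly higher in knockout cells. Region by region, the median ratio of knockout over parental summit height was 1.32-fold over the 14206 shared regions with recovered pileups, a log2 ratio of 0.40 (order-statistic 95% interval 0.39 to 0.40), and 85.0% of these regions were higher in knockout cells. The middle 9 in 10 of the ratios lay between -0.26 and 1.03. A height at least 2-fold higher in knockout cells was found at 882 regions, 6.21% of those compared, and one at least 2-fold lower at 17, 0.12%. Without division by the background the median log2 ratio was 0.36. Over the local background, as in the deposited fold, it was 0.14 (0.13 to 0.15), and knockout cells had the higher value at 68.0%. The local background at these regions was itself higher in knockout cells, at a median of 2.76 times the genome-wide one, against 2.23 times in parental cells.

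Peaks were also wider in knockout cells. The median log2 width ratio at shared regions was 0.21 (0.20 to 0.22), or 1.16-fold, and 72.8% of the regions were wider in knockout cells. At least 2-fold wider were 1303 regions, 9.16% of those compared, and at least 2-fold narrower 162, 1.14%. Width moved with height: where the heights of the lines were within 10% of each other the median log2 width ratio was 0.12 (0.10 to 0.13), and where the knockout summit was higher by more than that it was 0.25. Where the knockout summit was lower by more than 10% the widths were level, at 0.00 (-0.02 to 0.03). Knockout cells had more summits in a region at 2644 shared regions, the same number at 9936 and fewer at 1651. The number of separate peaks differed at few: knockout cells had 1 peak where parental cells had several at 150 regions, and several where parental cells had 1 at 139.

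**Figure D3:**
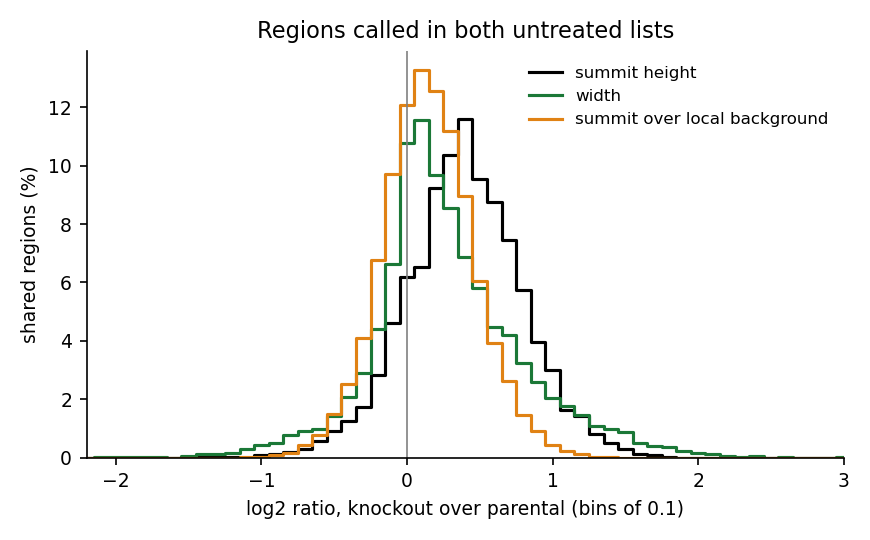
Distribution over regions called in both untreated lists of the log2 ratio of knockout over parental (x axis, bins of 0.1) for summit height (black), peak width (green) and the summit over its local background (orange), as the share of regions (y axis, %). The medians are 0.40, 0.21 and 0.14, the height curve lies mostly right of 0, and the lowest height ratio (-3.29) lies outside the axis.

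The difference in height reached from weak to strong regions. By quartile of the mean height of both lines, from the weakest to the strongest, the median log2 ratio was 0.30, 0.43, 0.45 and 0.39. Knockout cells had the higher summit at 74.9%, 84.3%, 89.7% and 91.0% of the regions in these quartiles. The width ratio was largest in the second quartile, at 0.29, and smallest in the strongest, at 0.14. Among shared regions that all 8 treated libraries also called, the height ratio was 0.42 over 11578 regions. It was 0.12 (0.03 to 0.15) over the 265 called in at most 3 of them. The deposited −log10 q of the best summit had a median log2 ratio of 0.49, and 78.2% of regions had the higher value there.

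Some loci were several-fold higher in untreated knockout cells. At chr16:8768119-8768813 the summit height was 28.8 in knockout and 7.96 in parental cells, 3.62-fold higher. At chr17:44449902-44450764 it was 26.3 in knockout and 7.35 in parental cells, and at chr20:33412324-33413828 it was 41.4 and 11.6. The largest ratios came from regions that were near the calling limit in parental cells, with a −log10 q between 3.42 and 4.71 there. At chr3:179168732-179169620 the height was 32.6 in knockout and 9.18 in parental cells, and at chr7:6629298-6630220 it was 34.5 and 9.79. In these 2 regions the treated libraries of the lines did not overlap. Heights were 17.2 to 30.1 in treated knockout and 9.48 to 15.7 in treated parental cells at the chromosome 3 region, and 29.9 to 52.9 and 12.9 to 25.6 at the chromosome 7 region. At the chromosome 17 region they were close but did not overlap, at 16.5 to 22.4 in treated knockout and 11.3 to 16.4 in the 3 treated parental libraries that called it. At the chromosome 16 region the treated libraries overlapped, at 10.9 to 26.1 in knockout and 23.5 to 38.05 in parental cells. They overlapped at chromosome 20 as well, at 30.5 to 44.1 and 14.2 to 40.7. The other pairs at these loci differ in treatment, and the 5 were picked for their untreated ratio. The share of all shared regions where treated heights of the lines do not overlap is not given.

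Only 1 locus was many-fold lower in untreated knockout cells. At chr3:96336130-96336973 the height was 39.5 in knockout and 387 in parental cells, a log2 ratio of -3.29, and the peak was 313 bp wide in knockout and 838 bp in parental cells. The treated knockout libraries had 278 to 311 there, with widths of 822 to 843 bp, and the treated parental ones 363 to 426. The height of the untreated knockout library lay below that of all 9 other libraries, the treated knockout ones included. The local background there was 20.7 times the genome-wide one in untreated knockout and 23.6 times in untreated parental cells. The next lowest ratios were milder. At chr13:59500846-59501506 the height was 6.90 in knockout and 18.4 in parental cells, and at chr15:86625775-86626568 it was 7.53 and 19.6. At chr12:32178132-32179294 it was 6.27 in knockout and 15.9 in parental cells, and at chr8:85677080-85677676 it was 8.15 and 19.6. At none of these 4 did the treated libraries separate the lines: at the chromosome 13 region they had 5.75 to 10.5 in knockout and 6.09 to 13.6 in parental cells.

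The largest width ratios were loci with a broad peak in knockout cells and a short one in parental cells. At chr18:7566690-7568690 the longest peak was 1925 bp in untreated knockout and 242 bp in untreated parental cells, 7.95-fold wider. It stayed broad in the treated knockout libraries, at 1638 to 2001 bp, and short in the treated parental ones, at 364 to 554 bp. At chr19:4065512-4067595 the widths were 2068 bp in untreated knockout and 337 bp in untreated parental cells, with 1827 to 2015 bp and 267 to 693 bp in the treated libraries. At chr18:13216745-13218862 they were 1467 and 217 bp, with 1131 to 1804 bp in treated knockout and 253 to 758 bp in treated parental cells. At chr1:954397-956054 they were 1295 and 204 bp, with 801 to 1294 bp and 354 to 796 bp in the treated libraries. At these 4 loci every knockout peak was wider than every parental peak called. At the fifth, chr17:65373068-65375113, with 1741 bp in untreated knockout and 223 bp in untreated parental cells, the treated libraries overlapped, at 1828 to 2037 bp and 1361 to 2046 bp.

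**Figure D4:**
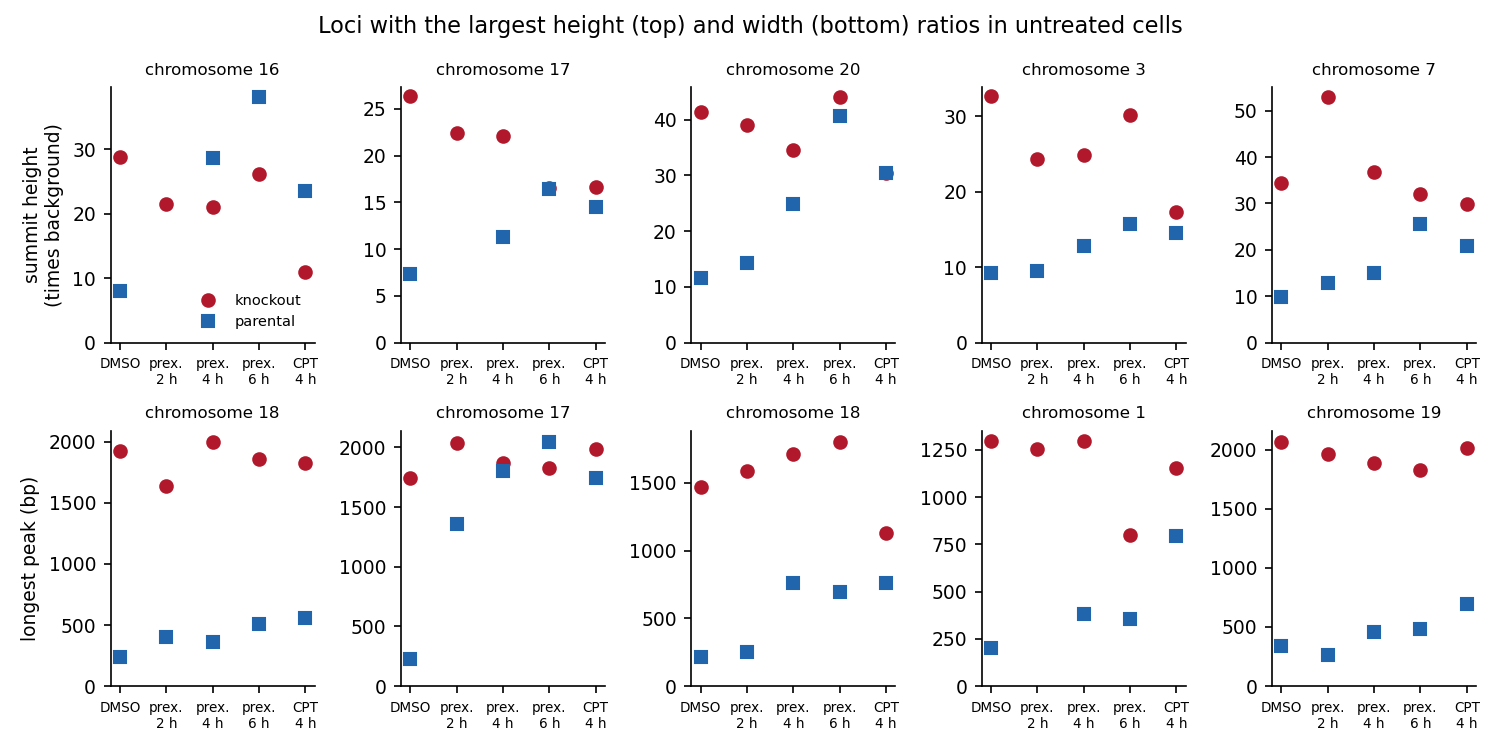
Summit height (top row, times the genome-wide background) and width of the longest peak (bottom row, bp) at the 5 shared regions with the largest untreated ratio of each measure, for knockout (red circles) and parental (blue squares) libraries under DMSO, prexasertib (prex.) for 2, 4 or 6 h and camptothecin (CPT) for 4 h. A missing point is a library with no peak there. In 4 of the 5 bottom panels every knockout point lies above every parental point. The share of all shared regions with such a separation is not given.

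The narrowest peaks of knockout cells relative to parental cells did not stay so. At chr6:27791586-27792779 the width was 204 bp in untreated knockout and 887 bp in untreated parental cells, while treated libraries had 682 to 1004 bp in knockout and 744 to 1012 bp in parental cells. At chr6:77084175-77084976 it was 237 bp in knockout and 772 bp in parental cells, and at chr6:26596048-26597518 it was 436 and 1219 bp. At chr12:104891313-104892597 it was 416 bp in knockout and 1140 bp in parental cells, and at chr15:44092643-44093298 it was 214 and 576 bp. The treated libraries of the lines overlapped at all 5, and at 3 of them the knockout summit was the higher one: chr6:26596048-26597518, at 16.3 in knockout and 11.0 in parental cells, the chromosome 12 region, at 17.6 and 17.1, and the chromosome 15 region, at 18.8 and 9.79.

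The regions that stood out in untreated cells kept part of their difference in the pair of libraries after 2 h of prexasertib. Of the 882 regions at least 2-fold higher in untreated knockout cells, 750 had heights in both 2 h libraries. Their median log2 ratio there was 0.64 (0.59 to 0.69), and 23.6% were again at least 2-fold higher. For the other shared regions the ratio was 0.36 (0.35 to 0.37), and 5.00% were at least 2-fold higher. At 4 h the medians were 0.10 and -0.10, at 6 h -0.39 and -0.52, and after camptothecin -0.40 and -0.62. The regions picked in untreated cells lay above the rest in each pair. In heights divided by the background, the median of all shared regions was below 0 in the 4 h, 6 h and camptothecin pairs. In each treated pair the background that divides the height was higher in the knockout library. It was 1.85 against 1.33 at 4 h, 1.99 against 1.52 at 6 h and 1.74 against 1.45 after camptothecin. By construction this division lowers the knockout over parental height ratio of these pairs. The division shifts the median log2 ratio of a pair by a fixed amount, the log2 ratio of its backgrounds. For all shared regions at 4 h, that amount was larger than the size of the median, -0.09. Without the division this median would lie above 0. At 6 h and after camptothecin the amount was smaller than the size of the medians, -0.51 and -0.61, which would stay below 0. Of the 17 regions at least 2-fold lower in untreated knockout cells, 15 had heights in both 2 h libraries, and 9 of these were lower in knockout cells there, with a median of -0.31 (-0.75 to 0.23). Width gave a like picture for the regions at least 2-fold wider in untreated knockout cells. Their median log2 width ratio was 0.86 at 2 h, 0.50 at 4 h, 0.32 at 6 h and 0.03 after camptothecin, and for all shared regions it was 0.39, 0.20, 0.10 and -0.05. At 2 h 43.3% of the wider regions were again at least 2-fold wider. So were 15.9% of all shared regions, and 32.1% of the regions at least 2-fold narrower in untreated knockout cells. The 162 regions at least 2-fold narrower in untreated knockout cells were not narrower there in the prexasertib pairs, with medians of 0.63 at 2 h, 0.30 at 4 h and 0.28 at 6 h, and had -0.28 after camptothecin. Region by region, the untreated log2 height ratio was weakly related to that of the 2 h pair, with a Pearson r of 0.27 and a Spearman rho of 0.23 over 12436 regions. At 4 h r was 0.17 and rho 0.14, at 6 h -0.0071 and -0.016, and after camptothecin 0.037 and 0.030. The regions come from the same libraries and are not independent, and these values are a description.

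The difference was present on every chromosome and differed in size between them. The median log2 height ratio was above 0 on all 23, from 0.31 (0.28 to 0.35) on chromosome 4, 0.32 on chromosome 13 and 0.32 on chromosome 6 up to 0.48 on chromosome 22, 0.49 on chromosome 17 and 0.50 (0.47 to 0.53) on chromosome 19. Taken over the local background, chromosome 21 was lowest, at 0.07, and chromosome 19 highest, at 0.20. The width ratio was lowest on chromosome 4, at 0.12, and highest on chromosome 22, at 0.34. Knockout-only regions outnumbered parental-only ones on each chromosome, by 2.28 to 1 on chromosome 4 and 18 and by 9.73 to 1 on chromosome 22. Parental-only regions made 12.3% (9.21% to 16.1%) of the regions of chromosome 18, 10.6% of chromosome 4 and 10.6% of chromosome 13, against 3.73% (2.70% to 5.00%) on chromosome 19 and 3.28% on chromosome 22. Knockout-only regions made between 22.4% on chromosome 19 and 33.5% on chromosome 21.

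Chromosomes with more open regions per Mb had the larger height ratios. Across the 23 chromosomes the number of regions per Mb correlated with the median log2 height ratio at 0.85 (Pearson) and 0.90 (Spearman), and with the share of parental-only regions at -0.69 and -0.77. With the share of knockout-only regions it was -0.07 and 0.09. The chromosomes come from the same 2 libraries, so these values describe them and carry no test. Within 266 windows of 10 Mb that held at least 20 shared regions, the correlation of the number of regions with the height ratio was 0.51 (Pearson).

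**Figure D5:**
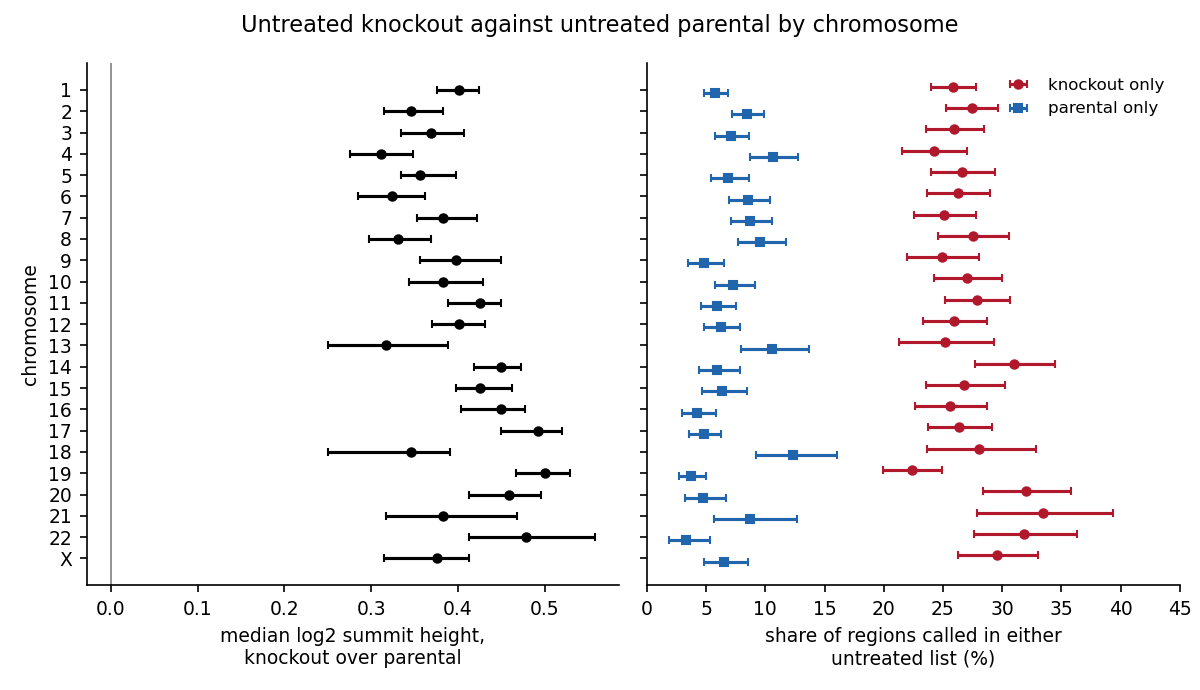
Median log2 summit height of knockout over parental at shared regions (left, with order-statistic 95% intervals) and share of regions called in untreated knockout only (red circles) or parental only (blue squares) among those called in either list (right, %, with exact binomial 95% intervals), for chromosomes 1 to 22 and X. All 23 medians lie above 0, from 0.31 on chromosome 4 to 0.50 on chromosome 19.

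Along the chromosomes 265 of the 266 windows had a median log2 height ratio above 0. The highest were chromosome 13 from 30 to 40 Mb, at 0.63 (0.25 to 0.75) over 30 shared regions, chromosome 17 from 30 to 40 Mb, at 0.60 (0.45 to 0.72) over 76, and chromosome 22 from 50 Mb, at 0.59 over 22. Chromosome 4 from 180 to 190 Mb and chromosome 2 from 240 Mb followed, at 0.59 over 37 and 0.58 over 35 shared regions. In the chromosome 17 window 54 of 137 regions (39.4%) were in knockout only and 7 (5.11%) in parental only. Over all regions the shares were 26.7% and 6.84%. Other windows had a higher share in knockout only, among them chromosome 6 from 160 to 170 Mb (44.0%) and chromosome 2 from 240 Mb (40.3%). The lowest were chromosome 16 from 40 to 50 Mb, at -0.06 (-0.18 to 0.43) over 27 regions, chromosome 4 from 40 to 50 Mb, at 0.02 (-0.14 to 0.29) over 46, and chromosome 8 from 110 to 120 Mb, at 0.03 over 20. Chromosome 6 from 70 to 80 Mb had 0.13 over 23 regions and chromosome 4 from 110 to 120 Mb 0.13 over 36.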

How the data were processed

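ATAC-seq was run on 10 libraries, 1 per line and treatment, of which the 2 untreated ones are compared. The authors deposited 1 narrowPeak list per library on hg19. The submitters' processing notes list MACS2 2.1.2, BWA 0.7.17, Picard 2.9.2, SAMtools 1.8, Trimmomatic 0.39 and Trim Galore 0.6.2. They give no parameters. Duplicate removal, a shift of reads for the transposase and a control library are not given in the sources used. The deposited score equalled 10 times the −log10 q-value, without its decimals, in 99.9885% of knockout and 99.995% of parental summits. The deposited fold is a ratio of the summit over the local background of its library. Each summit has its own deposited −log10 q-value and −log10 p-value, and all these are the peak caller's values.

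Lines with equal start and end were joined to 1 peak, and peaks outside chromosomes 1 to 22 and X, 1.75% of each untreated list, were left out. Regions are merges of the peaks of the 10 lists at an overlap of at least 1 bp. Pileups were recovered where a whole pileup gave the deposited fold and −log10 p within 0.001, for 99.8% of knockout and 99.7% of parental summits. The lowest recovered local background of a list is its genome-wide background. It stands in for depth and may also move with fragment length or noise. A region's width is that of its longest peak and its height that of its highest summit. Of the shared regions, 25 lacked a recovered height and have none. Shares have exact (Clopper-Pearson) and medians order-statistic intervals at 95% confidence.

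The loci named are the 5 at each end of strength in 1 list, of height ratio and of width ratio. For the ratios the higher summit had to reach the median of its library, 16.3 in the knockout and 14.7 in the parental one. The 3 chromosomes and 5 windows at each end are also named. The comparison, the members and the rules were chosen with earlier results of these data known. The gene lists planned were not used, because no annotation of hg19 was at hand. Pileup recovery and heights were chosen after looking at the files. The steps were tested on simulated data. Analyses used Python 3.11.15, pandas 2.3.3 and scipy 1.17.1.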

Additional observations from a re-analysis of the deposited data

How the results depend on the processing

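Of the 31 alternative values, 11 are log2 ratios that could change sign, and none of these did. The others are counts and a spread, which have no sign. The count of knockout-only regions, 5723, became 3442 with a −log10 q of at least 10 and 2742 with equal list lengths. With a reciprocal overlap of 50% peak by peak it became 7911. The count of parental-only regions, 1466, became 3610 with a reciprocal overlap of 50% peak by peak, 512 with a −log10 q of at least 10 and 2625 with equal list lengths. The count of shared regions, 14231, became 7357 with a −log10 q of at least 10. With that cut a region also counted as one-list where the other list had only a weaker peak. Equal list lengths thus brought the one-list counts to 2742 in knockout and 2625 in parental cells; by construction the lists then have the same number of peaks. The median log2 height ratio of knockout over parental, 0.40, was 0.36 without division by the background, 0.14 over the local background and 0.42 over regions called in all 10 lists. It was 0.37 where both lists reached a −log10 q of 10. The width ratio, 0.21, was 0.16 with a −log10 q of at least 10 in both lists. The ratio of −log10 q, 0.49, was 0.51 over regions called in all 10 lists, and that of −log10 p was 0.39. The spread between chromosomes, 0.19, was 0.13 over the local background. Merging without the parental 4 h prexasertib list, and leaving out regions with a local background of at least 10 times the genome-wide one, were added after the data were seen, moved none of the counts by more than 1.5 times and, where high local background was left out, left the height ratio at 0.40. No paired analysis was possible because the untreated comparison has 1 library per line and no replicate numbers. A model over all 5 conditions of both lines would ask about the lines across treatments and was not run. Without replicates, how far 2 untreated libraries of the same line would differ is not known.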

Other observations

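Knockout-only regions lay about as far from the nearest shared region as shared regions lay from one another. The median distance was 36.5 kb for knockout-only regions, 50.3 kb for parental-only regions and 38.8 kb from a shared region to the next nearest shared one. None lay within 100 kb of 21.0% of knockout-only, 34.0% of parental-only and 21.1% of shared regions. Along the chromosome, 2907 of the 4070 runs of knockout-only regions (71.4%) held a single region, and so did 1195 of the 1317 runs of parental-only regions (90.7%), a run having no other region of either list inside it. Knockout-only regions are the more numerous, and no baseline for run length was computed. The longest runs, named after their values were seen, held 8 knockout-only regions at chr11:117328836-118123349 and 5 parental-only regions at chr7:61255160-61825914. The 8 were called 22 times in the 4 treated knockout libraries and 19 times in the 4 treated parental ones. The 5 were called 10 times in treated knockout and 8 times in treated parental libraries. Here a region counts once for each library that called it. Of all knockout-only regions, single treated knockout libraries called 47.7% to 71.0% and treated parental ones 25.1% to 57.8%. For all parental-only regions these shares were 33.4% to 58.4% and 26.3% to 48.0%. A difference of the 2 runs from the shares of their class was not tested.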
